A study of Mus musculus with 4 samples.

Results

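The genes described here are the METTL methyltransferases and the machinery that writes, removes and reads N6-methyladenosine (m6A) in RNA, measured in fetal mouse oocytes. They were chosen by name: every protein-coding gene whose symbol starts with Mettl and a digit, together with Wtap, Virma, Zc3h13, Rbm15, Fto, Alkbh5, Ythdf1, Ythdf2, Ythdf3, Ythdc1 and Ythdc2. The rule gave 39 genes, of which 28 were Mettl genes and 11 were the others, out of 21897 protein-coding genes and 55401 gene identifiers in the count files. ICR female mice, an outbred stock, received standard chow (normal diet, ND) or food rich in fat (HFD) over 4 months as young females and were then mated with males on normal diet. Oocytes were sorted from female fetuses at E18.5 (days of embryonic development) with the surface marker SSEA-1, and their polyadenylated RNA was amplified by SMART-Seq2 and sequenced as 2 libraries from ND mothers and 2 libraries from HFD mothers. Each library was a pool of oocytes from several fetuses, so a value is the average of a pool and not of an animal, and which fetuses shared a mother was not given. The labels named no transgene or deletion, and called the cells primordial germ cells. The 4 libraries held 5723605 to 8223255 counted reads, and 3 counts corresponded to 0.365 to 0.524 CPM (a gene's count scaled to a common library total).

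m6A is the most common internal modification of messenger RNA. A complex built around METTL3 and METTL14 places it, with WTAP, VIRMA, ZC3H13 and RBM15 as the parts that hold the complex together and bring it to its targets. FTO and ALKBH5 remove the mark, and proteins with a YTH domain bind it and change the splicing, export, translation or decay of the marked RNA. In the female germ line this pathway is known for its part in meiotic entry and in the clearance of maternal transcripts. The other METTL proteins share the fold of the methyltransferase domain, and act on transfer RNA, ribosomal RNA, small nuclear RNA or proteins.

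The cells were checked against markers of the ovary before the genes were compared. Of 12 germ cell markers, 9 to 11 per library were above background, and their summed level was 2082 and 4510 CPM in ND replicates 1 and 2, and 5887 and 3753 CPM in HFD replicates 1 and 2. Of the 12, 8 were fitted higher and 4 lower in HFD, none was called by edgeR, and DESeq2 called 5 higher and 0 lower out of 10 with an adjusted p. At an unadjusted p under 0.05 in edgeR 4 were higher and 2 lower. Sycp1, Nobox, Figla and Taf7l had 0.973 to 6.78 CPM with ND and 51.7 to 1400 CPM with HFD, whereas Dazl had 1733 and 3770 CPM with ND and 453 and 8.56 CPM with HFD, and Ddx4 had 0.774 to 12.4 CPM in all libraries. The part of these marker differences in the results for the 39 genes was not tested. Markers of other cells were also read. The 8 stroma markers summed to 2842, 67.4, 2220 and 7674 CPM in the same order of libraries, and the 9 pregranulosa markers to 35.1, 406, 18.1 and 1165 CPM. Of the pregranulosa sum in HFD replicate 2, Amhr2 alone gave 1113 CPM, and without it the other 8 markers summed to 33.4, 404, 17.3 and 52.1 CPM. The 5 endothelium markers summed to 18.8, 68.6, 698 and 28.1 CPM, and the 5 macrophage markers to 9.85 to 39.3 CPM. The 5 blood markers summed to 1972 CPM in ND replicate 1 and to 1.02 to 4.54 CPM elsewhere. Background was taken from 1135 olfactory receptor genes, which encode the receptors for smell, as the 99th percentile of their reads per kilobase of exon in each library (7.44 to 12.5 reads per kilobase). Between 80.2% and 96.0% of these genes had at least 1 read in a library, so a few reads of a gene were not taken as expression.

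Few of the m6A and METTL genes were read above background in every library. Ythdf2, Ythdf1 and Mettl26 were above it in all 4 libraries, 3 of 39 genes (7.69%, against 3.36% of protein-coding genes). Alkbh5, Mettl1, Virma and Wtap were above it in 3 libraries, and Mettl5, Mettl8, Mettl9, Rbm15 and Ythdc1 in 2. A further 11 genes (28.2%, against 22.3%) passed the limit in 1 library, and 16 genes (41.0%, against 57.3%) passed it in none. The 16 genes included Mettl3, Mettl14 and Ythdc2. By library, 15 of the genes were above background in ND replicate 1, 16 in ND replicate 2, 9 in HFD replicate 1 and 5 in HFD replicate 2. The corresponding shares were 38.5%, 41.0%, 23.1% and 12.8%, beside 24.9%, 22.1%, 13.3% and 15.2% of protein-coding genes. Both HFD libraries held fewer of the genes, and lower shares of all protein-coding genes, than either ND library. The limit differed by library, at 8.47 and 9.01 reads per kilobase in ND replicates 1 and 2, and 7.44 and 12.5 in HFD replicates 1 and 2. HFD replicate 2 thus had the highest limit and, with 5723605, the fewest counted reads. The part of limit and depth in these counts was not tested.

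**Figure D1:**
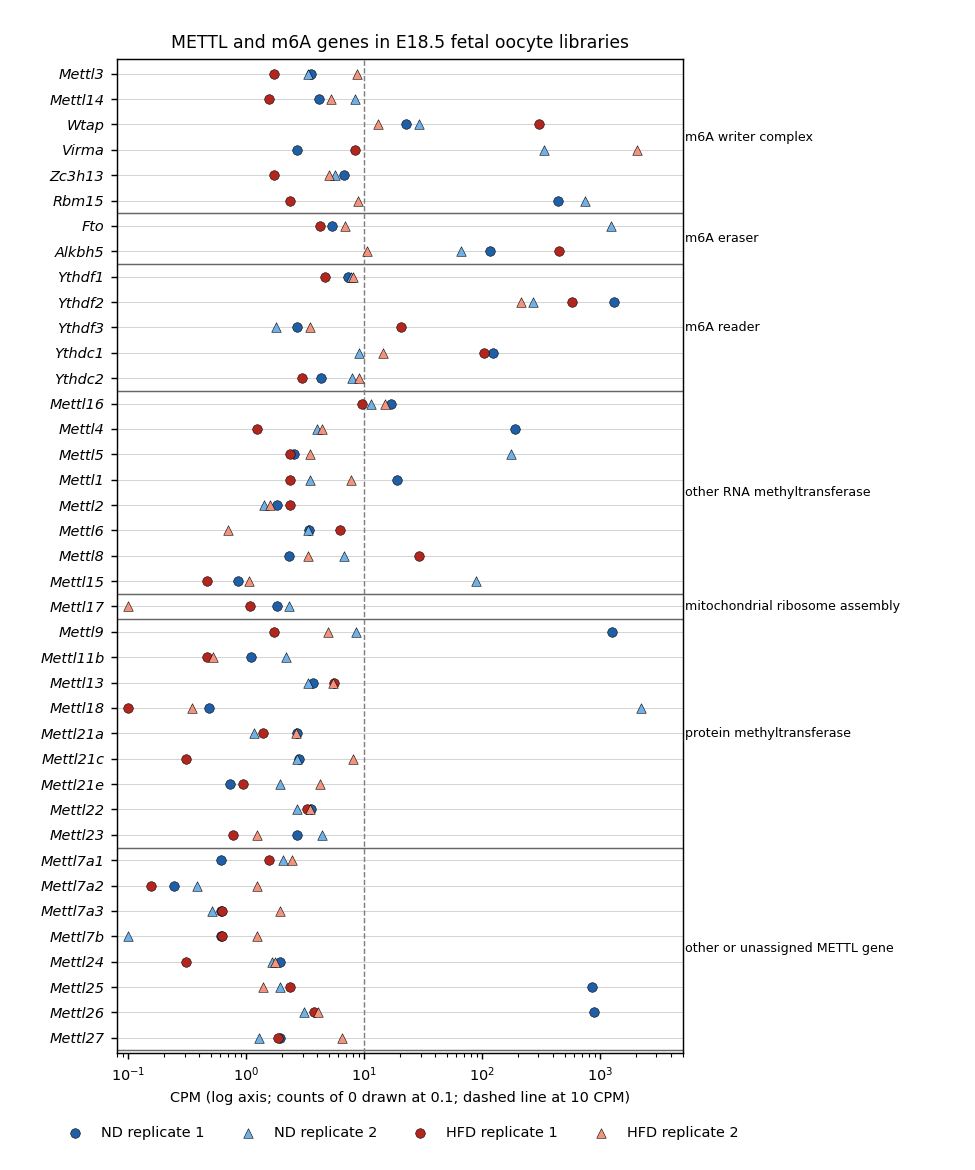
Level of each of the 39 genes in CPM (log axis) in the 4 libraries, grouped by role, with ND in blue and HFD in red, circles for replicate 1 and triangles for replicate 2, counts of 0 drawn at 0.1 and a dashed line at 10 CPM. Ythdf2 lies at 214 CPM or more in all libraries and Rbm15 lies at 439 and 745 CPM with ND and under 10 CPM with HFD, while Mettl9, Mettl18, Mettl25, Mettl26 and Fto each have 1 library far to the right of the other 3.

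RBM15 is an RNA-binding protein of the writer complex, which it brings to its targets. Its gene lies on chromosome 3 from 107325421 to 107333673 of GRCm38, on the minus strand. Rbm15 was read 3612 and 5826 times with ND, against 15 and 51 times with HFD. These counts correspond to 439 and 745 CPM with ND and 2.32 and 8.91 CPM with HFD. The diets did not overlap, and both HFD libraries were under the background limit. The fitted log2 fold change (HFD over ND) was -7.03 with a standard error of 2.01, an unadjusted p of 0.014 and an adjusted p of 0.406 in edgeR's quasi-likelihood test. DESeq2, the tool named in the study's methods and run here on the same counts, gave -7.11 with an adjusted p of 5.3e-07. The log2 fold change stayed between -7.46 and -6.53 when each library was left out in turn. No 50-base stretch of its transcripts was found in another gene. In pooled RNA, fewer cells that express a gene and less of its RNA per cell cannot be told apart.

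The catalytic pair of the complex was read at a low level in all libraries. Mettl3, the catalytic subunit, had 29 and 26 counts with ND and 11 and 50 counts with HFD, which is 0.82 to 3.75 TPM (transcript level per exon length, scaled to the library). The HFD libraries lay on either side of both ND libraries, with a log2 fold change of 0.25 and a standard error of 0.55. Mettl3 shares 18.4% of its exon bases with Tox4 on the opposite strand, which had 3 to 30 counts. Mettl14, which helps bind the RNA, had 34 and 65 counts with ND and 10 and 30 with HFD, or 0.51 to 2.25 TPM. Its log2 fold change was -1.16 with a standard error of 0.57 and an unadjusted p of 0.089 in edgeR. Zc3h13, which keeps the complex in the nucleus, had 55 and 44 counts with ND and 11 and 29 counts with HFD. The diets did not overlap for Zc3h13, at a log2 fold change of -1.10, a standard error of 0.42 and an unadjusted p of 0.038, with an adjusted p of 0.406 in edgeR. Zc3h13 was above the background limit in ND replicate 1 alone.

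The scaffold parts Wtap and Virma each had their highest level in 1 HFD library. Wtap, which joins the catalytic pair to the other parts, had 185 and 229 counts with ND, 1972 with HFD replicate 1 and 75 with HFD replicate 2. Its highest and its lowest level, 305 and 13.1 CPM, both came from HFD libraries. The log2 fold change of 3.07 (standard error 2.05) became -1.60 without HFD replicate 1. Virma, the largest scaffold protein of the complex, had 22 and 2614 counts with ND and 54 and 11784 counts with HFD. Its level was 2.68 CPM in ND replicate 1, 334 CPM in ND replicate 2, 8.36 CPM in HFD replicate 1 and 2059 CPM in HFD replicate 2. Replicates of the same diet differed more than the diets did, and the log2 fold change of 1.96 (standard error 2.91) ranged from -3.84 to 8.01 over the fits that left out 1 library. The stroma markers summed to 2842 and 67.4 CPM in ND replicates 1 and 2, and to 2220 and 7674 CPM in HFD replicates 1 and 2. Their sum was thus highest in the library with most Virma reads, and lowest in ND replicate 2, where Virma had 334 CPM. The part of stroma cells in the Virma reads was not tested.

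Both erasers differed by more than 10-fold between the replicates of 1 diet. Fto, the first m6A demethylase described, lies on chromosome 8 from 91313525 to 91668439. It had 44 counts in ND replicate 1 and 9754 counts in ND replicate 2, with 27 and 39 counts in the HFD libraries. Thus 98.7% of its summed CPM came from ND replicate 2, and the other 3 libraries were under background. The log2 fold change was -6.97 with a standard error of 2.96 and became 0.02 without ND replicate 2. DESeq2 gave Fto an adjusted p of 0.000263. Alkbh5, the other demethylase, which is needed in the male germ line, had 116 and 66.4 CPM with ND and 448 and 10.5 CPM with HFD. The ND values lay between the HFD values. Its log2 fold change was 1.81 with a standard error of 2.18, and it was -3.72 without HFD replicate 1.

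Among the readers Ythdf2 had the highest level per exon length. Ythdf2, which shortens the life of marked transcripts and is needed for oocyte competence, had 10713 and 2124 counts with ND and 3730 and 1226 counts with HFD. This corresponds to 615 and 119 TPM with ND and 308 and 102 TPM with HFD. The order of libraries alternated between diets, and the log2 fold change of -0.69 had a standard error of 1.96 and a range of -2.45 to 0.75 with single libraries left out. Its paralogs, which also act in the cytoplasm, were far lower per exon length. Ythdf1 had 60 and 60 counts with ND and 30 and 46 with HFD, or 3.42 to 5.28 TPM, with a log2 fold change of -0.35 (standard error 0.47). Ythdf3 had 22 and 14 counts with ND and 133 and 20 counts with HFD, and passed the background limit in HFD replicate 1. Both HFD levels in CPM of Ythdf3, 20.6 and 3.49, were above both ND levels, 2.68 and 1.79. With TMM-normalized CPM this order did not hold, and the log2 fold change of 2.80 (standard error 1.23, unadjusted p = 0.062 in edgeR) became 0.05 without HFD replicate 1. Ythdc1, the nuclear reader, which acts in splicing and is needed for oocyte growth, had 123 and 9.09 CPM with ND and 103 and 14.5 CPM with HFD. Each diet thus had a library near 100 CPM and a library near 10 CPM, and the log2 fold change was 0.27 with a standard error of 1.86 (-0.18 when scaled by library size only). Ythdc2, an RNA helicase that germ cells need to stay in meiosis, had 35 and 62 counts with ND and 19 and 52 with HFD, with a log2 fold change of -0.29 and a standard error of 0.56.

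Of the enzymes that act on other RNA, Mettl16 was read at a similar level in the 4 libraries. METTL16 methylates a small nuclear RNA of the spliceosome and a transcript for the enzyme that makes the methyl donor. Mettl16 had 16.9 and 11.5 CPM with ND and 9.60 and 14.9 CPM with HFD, and was above the background limit in ND replicate 1 alone. Mettl4, which methylates a small nuclear RNA, had 1576 counts in ND replicate 1 and 31, 8 and 25 counts in ND replicate 2 and HFD replicates 1 and 2. For Mettl4 the log2 difference was -5.34 (standard error 2.01, unadjusted p = 0.038, adjusted p = 0.406 in edgeR) and -0.83 without ND replicate 1. Mettl5, which methylates the RNA of the small ribosomal subunit, had 1380 counts in ND replicate 2 and 15 to 21 counts elsewhere. Ssb, which shares 6.93% of the exon bases of Mettl5 on the opposite strand, was high in ND replicate 2 (3276 counts) and in HFD replicate 1 (3292 counts), against 58 and 32 counts in ND replicate 1 and HFD replicate 2. Without ND replicate 2 the log2 fold change of Mettl5 went from -5.06 (standard error 2.10) to 0.19.

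The transfer RNA enzymes were low. Mettl1, which forms methylguanosine in transfer RNA, had 155 and 27 counts with ND and 15 and 44 counts with HFD, and its log2 fold change of -1.38 (standard error 0.90) became 0.21 without ND replicate 1. Mettl8, which methylates cytidine in mitochondrial transfer RNA, had 19 and 53 counts with ND and 188 and 19 counts with HFD, and its log2 fold change of 2.21 (standard error 1.47) became -1.08 without HFD replicate 1. Mettl2 and Mettl6, which methylate cytidine in cytoplasmic transfer RNA, had 4 to 40 counts. Mettl15, which methylates mitochondrial ribosomal RNA, had 697 counts in ND replicate 2 and 3 to 7 counts elsewhere, and it did not pass the count filter. Mettl17, a factor for the assembly of the mitochondrial ribosome, had 15 and 18 counts with ND and 7 and 0 counts with HFD.

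Among the protein methyltransferases, Mettl9 and Mettl18 each came almost wholly from 1 ND library. Mettl9, which methylates histidine in proteins, lies on chromosome 7 from 121034445 to 121078329. It had 10450 counts in ND replicate 1, 67 in ND replicate 2, 11 in HFD replicate 1 and 28 in HFD replicate 2. The HFD values were both below the ND values, with a log2 fold change of -7.77, a standard error of 2.90 and an unadjusted p of 0.038, adjusted p = 0.406 in edgeR. It lay between -8.75 and -1.66 over the fits that left out 1 library, and was -1.66 without ND replicate 1. Mettl18, which methylates a histidine of a ribosomal protein, lies on chromosome 1 from 163994889 to 163997243. It had 17352 counts in ND replicate 2, 4 counts in ND replicate 1, 0 counts in HFD replicate 1 and 2 counts in HFD replicate 2. At 2945 TPM this was the highest level per exon length of any of the 39 genes in any library, and the other libraries added almost nothing to the gene's summed CPM. The edgeR fit with the count filter gave no fold change for Mettl18, since the filter removed it. DESeq2 on all genes gave -13.2 with an adjusted p of 5.42e-07. That value set ND replicate 2 against HFD libraries at or under the floor of 3 counts.

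The other protein methyltransferases did not reach 10 CPM. Mettl23, which methylates histone H3, passed the count filter through the ND libraries alone, since both HFD libraries were under the filter level of 1.40 CPM, so a lower HFD level was favoured by the filter. Its counts were 22 and 34 with ND and 5 and 7 with HFD. That the diets did not overlap was fixed by passing the filter in this way. Mettl23 was above the background limit in ND replicate 2 alone. The log2 fold change was -1.89 (standard error 0.48, unadjusted p = 0.0062, adjusted p = 0.406 in edgeR) and lay between -2.24 and -1.42 over the fits that left out 1 library. Mettl23 shares 17.1% of its exon bases with Srsf2 on the opposite strand, which had 8123, 253, 1403 and 13 counts, and 9.53% with Mfsd11, which had 5763, 40, 20 and 25 counts. How reads of such shared bases were assigned was not stated, and the part they take in the counts of Mettl23 was not tested. Mettl13, which methylates a translation elongation factor, had 30 and 26 counts with ND and 36 and 31 with HFD. Mettl11b, Mettl21a, Mettl21c, Mettl21e and Mettl22 had 2 to 46 counts.

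The remaining METTL genes have no RNA or protein substrate named here. Mettl25, on chromosome 10, had 7086 counts in ND replicate 1 and 15, 15 and 8 counts in ND replicate 2 and HFD replicates 1 and 2. The fit gave a log2 fold change of -7.63 (standard error 3.13), and of 0.06 once ND replicate 1 was left out. Ccdc59, which shares 11.3% of the exon bases of Mettl25 on the opposite strand, had 7560 counts in HFD replicate 1, where Mettl25 had 15. Mettl26, on chromosome 17, had 7367 counts in ND replicate 1 and 23 or 24 counts in each of the other libraries, and its log2 fold change of -6.78 (standard error 2.89) became 0.29 without ND replicate 1. Mettl27 was the gene with an unadjusted p under 0.05 in the other direction, with 16 and 10 counts with ND and 12 and 37 counts with HFD, a log2 fold change of 1.09 (standard error 0.45) and an unadjusted p of 0.049 in edgeR. The CPM of Mettl27 overlapped between the diets, and the gene was under the background limit in every library. Mettl7a1, Mettl7a2, Mettl7a3, Mettl7b and Mettl24 had 0 to 16 counts. The Mettl7a genes share sequence, and 63.2% of the 50-base stretches of Mettl7a2, 48.7% of those of Mettl7a3 and 17.2% of those of Mettl7a1 occur in another gene, so their counts could not be kept apart with certainty.

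**Figure D2:**
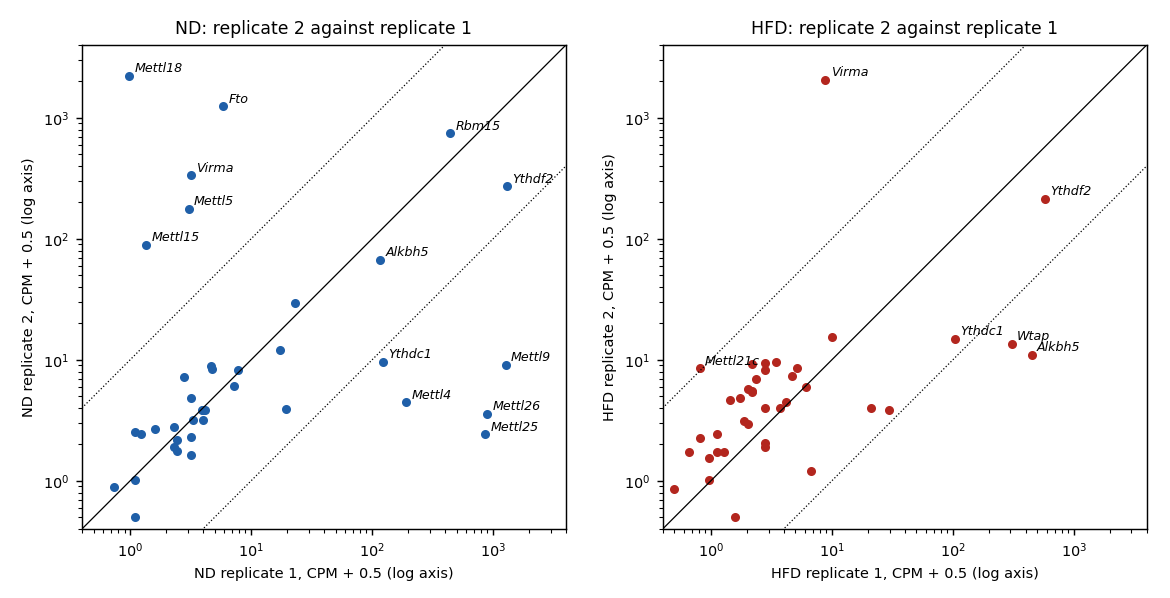
Replicate 2 against replicate 1 for the 39 genes, in CPM + 0.5 on log axes, for ND on the left and HFD on the right, with the solid line at equal levels and the dotted lines at 10-fold differences. In ND 10 genes lie outside the dotted lines, on both sides, and in HFD the 4 genes outside are Virma, Wtap, Alkbh5 and Mettl21c.

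A signal in a single library was common among these genes. Of the 39 genes, 18 reached 10 CPM in at least 1 library, and the other 21 had 0 to 65 counts in every library. In 8 of the 18 (44.4%), at least 90% of the summed CPM came from 1 library, beside 30.5% of the 6090 protein-coding genes that reached 10 CPM. ND replicate 1 held this share of Mettl4 (95.2%), Mettl26 (98.8%), Mettl9 (98.8%) and Mettl25 (99.3%). ND replicate 2 held it of Mettl5 (95.5%), Mettl15 (97.4%), Fto (98.7%) and Mettl18, with 0 to 4 counts in the other libraries. Of the protein-coding genes at 10 CPM, 9.47% had this share in ND replicate 1 and 4.38% in ND replicate 2. No gene of the set had it in an HFD library, where 11.02% and 5.58% of the protein-coding genes at 10 CPM did. Among the 33 genes that passed the count filter, the ND replicates differed by more than 10-fold in 8 (24.2%, against 8.13% of all genes tested, with 0.5 CPM added). The HFD replicates did so in 4 (12.1%, against 10.5%). ND replicate 1, which held Mettl9, Mettl25, Mettl26 and Mettl4, was also the library with the blood markers. In it Hba-a1, Hbb-bs and Hbb-bt, which encode globins, had 715, 894 and 362 CPM, while Hba-a2 and Alas2 had 0.122 and 1.34 CPM, and Hba-a2 had no count in the other 3 libraries. Stroma markers summed to 2842 CPM in that library, to 67.4 CPM in ND replicate 2 and to 2220 and 7674 CPM in HFD replicates 1 and 2. In the HFD libraries Mettl9, Mettl25, Mettl26 and Mettl4 had 8 to 28 counts. The part of blood or stroma cells in these genes was not tested.

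The sequence before the start of 29 of the 39 genes was taken from RefSeq (GRCm38.p6), and the table gave none for Virma, Mettl21e, Mettl21c, Mettl2, Mettl15, Mettl13, Mettl7a3, Ythdf3, Mettl14 and Ythdc2. In the 250 bases upstream of the start the median number of CG dinucleotides was 16, with a range of 2 to 33, against a median of 6 over 27025 genes, and the median GC content was 60.8% against 52%. The letters GGGCGG or their reverse complement occurred in 12 of the 29 (41.4%, against 32.9% of all genes). The letters CCAAT occurred on either strand in 13 (44.8%, against 34.5%), and TATAAA on either strand in 1, Mettl7a2 (3.45%, against 13.0%). None of the sets of letters searched contains another, though matches of different sets can share bases at their ends. Of the patterns seen, Ythdf2 stands for a gene read in every library. Fto stands for a gene read almost wholly in ND replicate 2, and Mettl9 for a gene read almost wholly in ND replicate 1. Below is the stretch before each of these 3 genes. Each is written 5′ to 3′ on the strand of its gene, and ends at the base before the annotated gene, with capitals for GGGCGG or its reverse complement.
Ythdf2, chr4:132212304-132212506, minus strand: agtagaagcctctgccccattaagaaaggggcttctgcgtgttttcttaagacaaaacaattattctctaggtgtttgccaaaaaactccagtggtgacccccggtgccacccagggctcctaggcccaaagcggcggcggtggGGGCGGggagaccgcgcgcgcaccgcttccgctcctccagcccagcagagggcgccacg
Fto, chr8:91313275-91313524, plus strand: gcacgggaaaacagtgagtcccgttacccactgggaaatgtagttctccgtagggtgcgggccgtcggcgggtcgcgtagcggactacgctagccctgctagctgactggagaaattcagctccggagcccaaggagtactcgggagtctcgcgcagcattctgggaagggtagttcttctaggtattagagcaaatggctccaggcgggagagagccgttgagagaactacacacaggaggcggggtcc
Mettl9, chr7:121034195-121034444, plus strand: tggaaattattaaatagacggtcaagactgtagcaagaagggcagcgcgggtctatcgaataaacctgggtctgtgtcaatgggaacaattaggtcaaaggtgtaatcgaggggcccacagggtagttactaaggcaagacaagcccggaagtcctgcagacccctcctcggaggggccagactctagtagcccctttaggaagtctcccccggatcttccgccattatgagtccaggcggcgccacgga
The stretch of Ythdf2 had 203 bases, 14 CG dinucleotides and 1 match, that of Fto 250 bases and 18 CG dinucleotides, and that of Mettl9 250 bases and 12 CG dinucleotides. The letters GGGCGG or their reverse complement were not in the window of Fto or Mettl9. All 250 bases before Mettl9 lie in an annotated exon of Gm9905 on the opposite strand, an unclassified transcript with 1 to 10 counts.

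The diets were compared in a fit across all 19335 genes that passed the count filter. It called a gene at an adjusted p under 0.05 and a fold change over 1.5. Of the 39 genes 33 were tested, and 6 (Mettl11b, Mettl15, Mettl18, Mettl7a2, Mettl7a3 and Mettl7b) did not pass the filter. edgeR's quasi-likelihood test called 0 of the 33 higher and 0 lower in HFD, as it called 0.0% of all genes higher and 0.0% lower. The smallest adjusted p among the genes, 0.406, was also the smallest of all genes tested. At an unadjusted p under 0.05, 1 gene was higher (Mettl27), where 4.82% of all genes tested were higher. In the other direction 5 genes passed it (Mettl23, Rbm15, Mettl9, Zc3h13 and Mettl4), where 6.41% of all genes tested did. Mettl23 and Mettl17 were tested through the ND libraries alone, and none of the 33 genes through the HFD libraries alone. limma-voom and the legacy fit of edgeR also called none of the genes. The p-values measure the spread between pooled samples, which may be technical in part.

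DESeq2 on all genes called 9 of the genes lower and 0 higher, out of 20 that it gave an adjusted p, and gave none to the other 19. Among all genes with an adjusted p it called 18.7% lower and 21.6% higher. The 9 genes were Rbm15, Fto, Mettl4, Mettl5, Mettl9, Mettl15, Mettl18, Mettl25 and Mettl26. All but Rbm15 were among the 8 genes with at least 90% of their summed CPM in 1 ND library. Rbm15 was thus the gene called by DESeq2 that was high in both ND libraries.

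The fitted differences were spread over both directions. Of the 33 genes 15 were fitted higher and 18 lower in HFD, beside 51.5% and 48.5% of all genes tested. The median log2 fold change was -0.28, beside 0.03 over all genes tested. With scaling by library size only the medians were -0.18 and 0.21. Both HFD CPM values were above both ND values for Mettl13 and Ythdf3, 2 of 33 genes, beside 13.9% of all genes tested. Both were below for Mettl17, Mettl23, Mettl9, Rbm15 and Zc3h13, 5 of 33 genes, beside 13.4%. Mettl17 and Mettl23 passed the count filter through the ND libraries alone, which fixed this order for them in advance. With TMM-normalized CPM, 2 genes were above (Mettl13 and Mettl27) and 9 below, beside 16.1% and 17.8% of all genes tested.

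**Figure D3:**
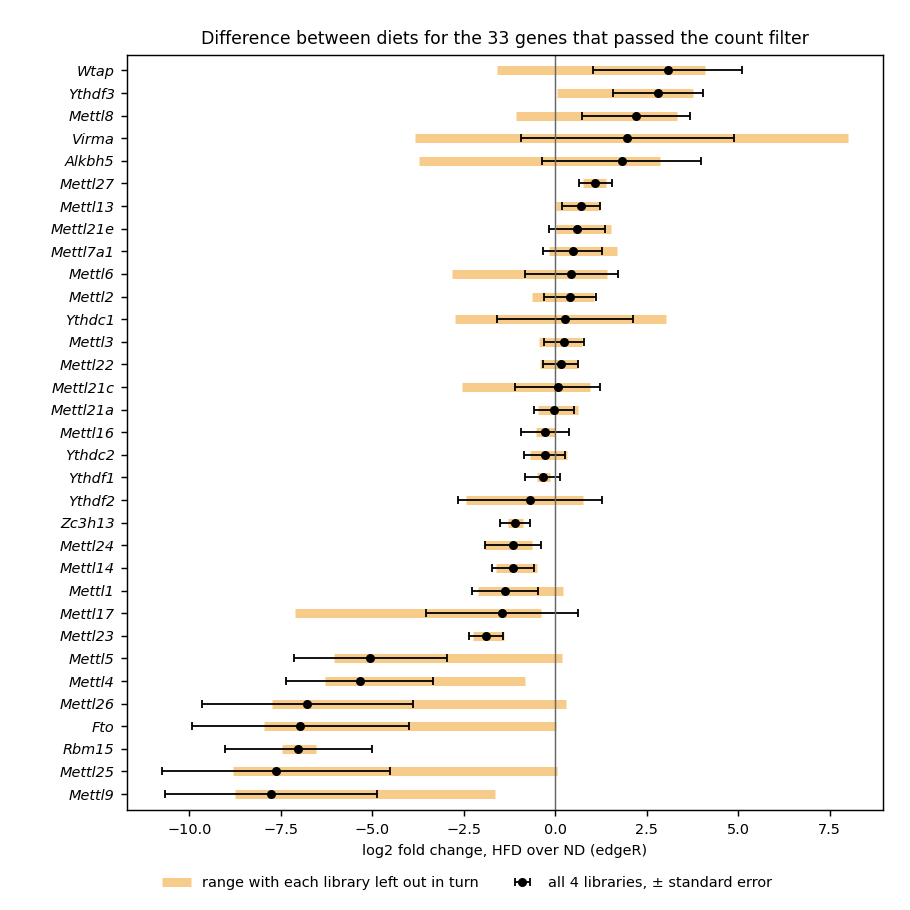
Log2 fold change (HFD over ND, edgeR) of the 33 genes that passed the count filter, with points for the fit to all 4 libraries, bars for ± its standard error and orange bands for the range over fits that left out each library in turn. Narrow bands below 0 include those of Rbm15, Mettl23, Zc3h13, Mettl14 and Ythdf1, and the band of Mettl27 is narrow and lies above 0. Mettl23 passed the count filter through the ND libraries alone, which favoured a lower HFD level. The bands of Mettl9 and Mettl4 are wide and stay below 0, whereas those of Fto, Mettl25, Mettl26, Mettl5, Virma, Wtap and Alkbh5 reach or cross 0.

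The summed level of the 39 genes was 5333 and 5296 CPM in the ND libraries and 1563 and 2455 CPM in the HFD libraries. The mean was 5314.5 ± 26.2 CPM with ND and 2009 ± 631 CPM with HFD (SD, n = 2 each), and the log2 ratio was -1.40. The exact two-sided permutation test gave p = 0.333, the smallest it can give with 2 libraries against 2. The near equal ND sums were made of different genes. Ythdf2 gave 24.4% of the reads of the set in ND replicate 1 and 37.0% in HFD replicate 1, Mettl18 gave 41.9% in ND replicate 2, and Virma gave 83.9% in HFD replicate 2. By role, the writer complex summed to 479, 1127, 321 and 2099.9 CPM in ND replicates 1 and 2 and HFD replicates 1 and 2, and the readers to 1440, 298, 709 and 249 CPM. The protein methyltransferases summed to 1288, 2247, 14.4 and 30.7 CPM in the same order, and the enzymes for other RNA to 238, 296, 53.6 and 37.0 CPM. The ND sums of the protein methyltransferases were almost all Mettl9 in one library and Mettl18 in the other. Without Mettl4, Mettl5 and Mettl15, each read almost wholly in 1 ND library, the enzymes for other RNA summed to 43.3, 26.5, 49.6 and 28.1 CPM. The diets then overlapped, which was favoured by taking out genes picked for their ND signal. Mettl8, with 70.1% of its summed CPM in HFD replicate 1, was kept.

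**Figure D4:**
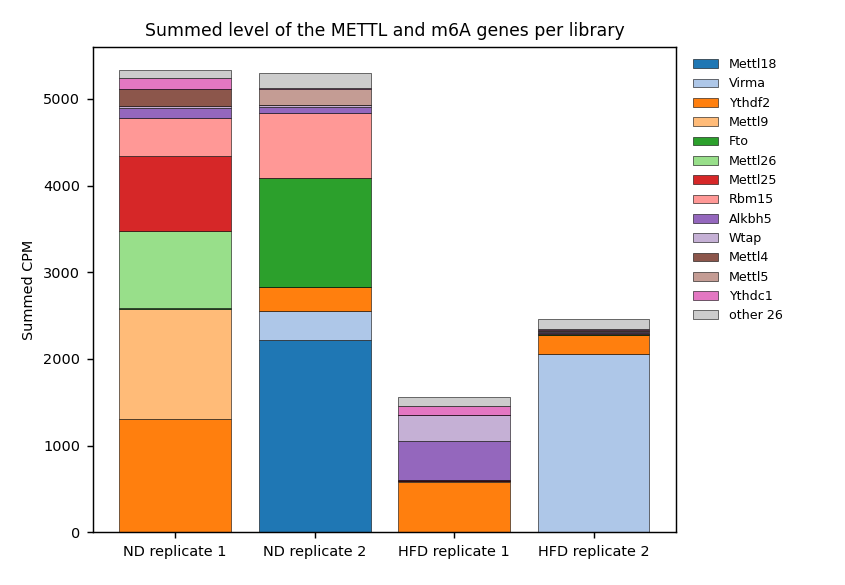
Summed CPM of the 39 genes in each library, stacked by gene for the 13 genes with most reads and the other 26 together, as shares of counted reads that are not corrected for gene length. Both ND bars reach about the same height and both HFD bars are lower, with Mettl9, Mettl25 and Mettl26 prominent in ND replicate 1, Mettl18 and Fto in ND replicate 2 and Virma in HFD replicate 2.

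Other genes of these pathways were read from the same fit. Of a list of 30 partners, other m6A readers and relatives of the protein methyltransferases, 29 were found by name and 28 were tested, with 14 fitted higher, 14 fitted lower, none called by edgeR and a median log2 fold change of -0.02. At an unadjusted p under 0.05, 0 were higher and 3 were lower, beside 4.82% and 6.41% of all genes tested. All 3 passed the count filter through the ND libraries alone, which favoured a lower HFD level. Of these, Wdr4, the partner of METTL1, had 3.53 and 3.84 CPM with ND and 0.929 and 0.874 CPM with HFD. Vcpkmt, a lysine methyltransferase, had 1.82 and 4.48 CPM with ND and 0.465 and 0.699 CPM with HFD. Eef1akmt1, which methylates a translation elongation factor, had 3.53 and 1262 CPM with ND and 1.24 and 0.175 CPM with HFD. DESeq2 called 4 of the list higher (Pcif1, Hnrnpc, Fmr1 and Etfbkmt) and 2 lower (Rbmx and Eef1akmt1) out of 19 with an adjusted p, beside 21.6% and 18.7% of all genes with one. Trmt112, the partner that METTL5 needs, had 0.851 CPM in ND replicate 1 and 625, 518 and 399 CPM in ND replicate 2 and HFD replicates 1 and 2. Trmt112 was thus high in ND replicate 2, the library with most Mettl5 reads, and also in both HFD libraries, where Mettl5 had 15 and 20 counts.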

How the data were processed

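The authors used Trim Galore for trimming, HISAT2 for alignment (mm10) and featureCounts for counting. Annotation release, strand setting and multimapping were not given in the sources used here. The deposited values were raw counts per gene, used as deposited. Names, exons and biotypes came from GENCODE M21, which lacked 260 identifiers. CPM used library totals, and TPM used the union exon length. The diets were compared in R 4.3.3 with edgeR 4.0.16 (legacy FALSE, TMM with factors 1.02, 0.940, 0.692 and 1.51, filterByExpr, Benjamini-Hochberg), the standard error being the size of the fitted log2 change divided by the root of F. DESeq2 1.42.0, limma-voom (limma 3.58.1), the legacy edgeR fit, other scalings and filters, a replicate block and leaving out each library were alternatives. The functions were tested on simulated data. Genes reaching 10 CPM in a library were given per library. Mettl3, Mettl14, Ythdf1, Ythdc2, Mettl13, Mettl17, Mettl23, Mettl27 and Zc3h13 were added after their values were seen. Members and lists were chosen with earlier results of these data known. Floors cover counting error only, whereas the standard errors also hold the spread between libraries. Protein sequences were not used here, and 1 gene of the marker lists is not reported here.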

Additional observations from a re-analysis of the deposited data

How the results depend on the processing

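None of the 39 genes was called by edgeR under the other scalings, the other filters, without the fold change minimum, with the replicate block, with the legacy fit or with each library left out, nor by limma-voom. Over all genes, the legacy fit called 12 higher and 22 lower, DESeq2 on all genes 1350 and 1168, DESeq2 on the filterByExpr genes 1039 and 1063, and DESeq2 with a replicate block 300 and 569. Of the 39 genes DESeq2 called 9 lower on all genes, and 7 lower and 1 higher (Ythdf3) on the filterByExpr genes. With the replicate block DESeq2 called 4 lower (Mettl18, Rbm15, Mettl9 and Mettl25). On all genes, 18.7% of the genes with an adjusted p were called lower and 21.6% higher. No such share was taken for the filterByExpr genes or the replicate block, so those counts were not read as high or low. The labels tie same-numbered libraries to no shared animal or batch, and their deviations had a correlation of 0.011 across genes, so the replicate numbers were not taken as a pairing. With the block edgeR called 0 in both directions, as without it. Above-background genes in all 4 libraries went from 3 to 6 with the 95th percentile and to 1 at 50 CPM, and those in none from 16 to 8 and 25. The log2 ratio of the summed level, -1.40, was -1.07 without Mettl18 and ranged from -1.77 to -1.11 over single libraries left out. Direction was followed for 18 log2 fold changes, which are not those of the 18 genes that reached 10 CPM. Mettl15, Mettl16 and Mettl18 were left out, and Mettl23, Zc3h13 and Mettl27, all under 10 CPM, were included. Of these 18, 14 to 16 kept their direction without a given library, and Mettl23, Zc3h13 and Mettl27 kept it each time. However, Mettl23, Zc3h13 and Mettl27 were added after their values were seen, which favoured a kept direction. Mettl23 also passed the count filter through the ND libraries alone. The tally of 14 to 16 includes these genes, so it is not a measure of how stable the set is. The ranges were -2.45 to 0.75 for Ythdf2, -1.60 to 4.10 for Wtap, -3.84 to 8.01 for Virma, -3.72 to 2.85 for Alkbh5, -7.97 to 0.024 for Fto, -2.75 to 3.03 for Ythdc1, -8.80 to 0.058 for Mettl25, -7.75 to 0.29 for Mettl26, -6.04 to 0.19 for Mettl5, -1.08 to 3.32 for Mettl8 and -2.12 to 0.21 for Mettl1. Alkbh5 was also reversed by limma-voom (-0.065), by the replicate block in edgeR (-0.41) and by the block in DESeq2 (-0.47), and Ythdc1 by library size only (-0.18). The cause of these changes was not tested. Genes under the background limit, 16 of the 39 in every library, were not detectable as expressed at this depth.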
